A study of Ovis aries with 4 samples.

Results

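HIF1A, NDRG1, BNIP3, TRIB3, GADD45A and MYC are genes through which a cell meets low oxygen, scarce amino acids and the demand for growth, and their transcript levels were examined in the sheep conceptus of pregnancy day 14. They were taken by name from the deposited table, where 6 of 6 were found, each as 1 of 25197 features. RNA came from 4 conceptuses of 4 different ewes, crosses of Columbia and Rambouillet sheep, and these form 1 group with no treatment and no control. A conceptus at this stage is a lengthening filament of trophectoderm, the outer epithelium that will form the placenta, lined by endoderm and carrying a small embryonic disc. Because whole conceptuses were sequenced, fewer cells of a type and less RNA per cell cannot be told apart. Values are RPKM, reads scaled by transcript length and library size as the authors computed them, so that levels of different genes within a library can be set side by side.

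The 6 genes stand at nodes of connected pathways. HIF1A is the oxygen-regulated subunit of hypoxia-inducible factor. Its protein is hydroxylated and destroyed when oxygen is ample, so its control lies mainly in protein stability, and when oxygen falls it pairs with ARNT and raises transcription of genes such as BNIP3 and NDRG1. Shortage of amino acids or misfolded protein in the endoplasmic reticulum leads to phosphorylation of the initiation factor eIF2, translation of the transcription factor ATF4, and transcription of ATF4 targets such as TRIB3. MYC pairs with MAX and drives ribosome production, nucleotide synthesis and division, while GADD45A is induced by DNA damage and other stresses and slows the cell cycle. The uterine lumen in which a conceptus elongates is low in oxygen, and elongation before attachment depends on nutrients secreted by the uterus.

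NDRG1 was the highest of the 6 genes in each conceptus, and MYC had the lowest mean. All 6 reached a mean of 5 RPKM, a level reached by 35.2% of the 15226 features that carry a gene symbol. HIF1A, NDRG1, BNIP3 and GADD45A were at 5 RPKM or more in each conceptus, whereas TRIB3 dropped below that level in conceptus 2 and MYC in conceptus 3. By mean level NDRG1 stood above 93.7% of the features with a symbol, BNIP3 above 85.9%, GADD45A above 81.6%, TRIB3 above 80.7%, HIF1A above 79.3% and MYC above 72.5%.

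**Figure D1:**
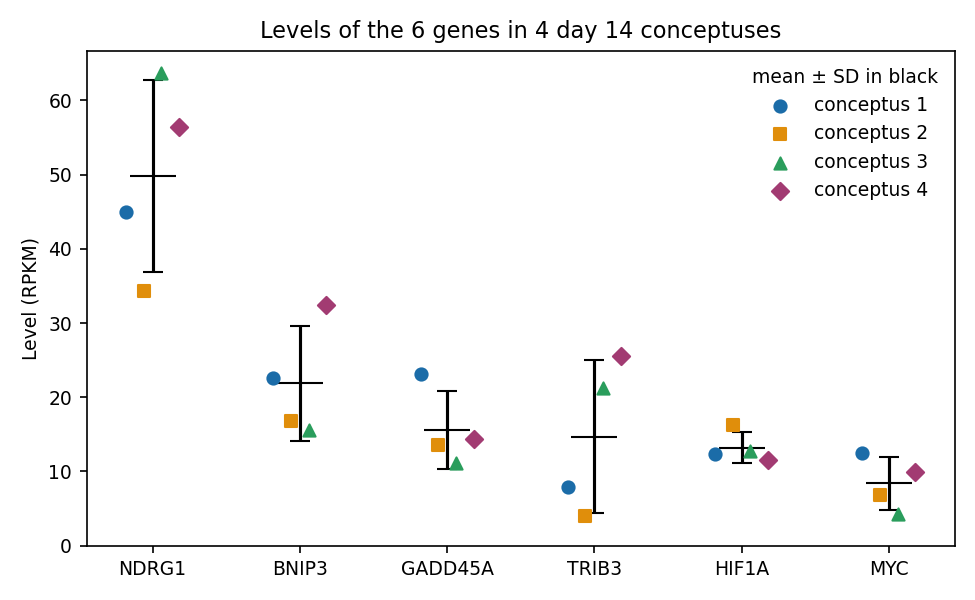
Level in RPKM (vertical axis, linear from 0) of the 6 genes, ordered by mean. Each coloured symbol is 1 conceptus, and the black bar is the mean with its SD over 4 conceptuses. NDRG1 lies between 34.3 and 63.7 RPKM, HIF1A is the most even at 11.5 to 16.2 RPKM, and TRIB3 is the most spread at 4.04 to 25.5 RPKM.

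HIF1A was even between animals. It stood at 12.4, 16.2, 12.7 and 11.5 RPKM in conceptuses 1 to 4, a mean of 13.2 ± 2.08 RPKM (SD, n = 4). The highest library was 1.41 times the lowest, against a median of 1.59 times over the features averaging 5 RPKM or more. Its spread was thus below that of the middle feature, and only conceptus 2 stood somewhat above the rest.

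Among the oxygen-regulated subunits, HIF1A carried the smaller part of the signal. EPAS1, which encodes the related subunit HIF-2 alpha, stood at 33.7, 28.0, 48.9 and 35.2 RPKM, above HIF1A in 4 of 4 conceptuses. HIF1A minus EPAS1 was -1.38 ± 0.467 on the log2(RPKM + 1) scale (SD, n = 4, two-sided exact sign-flip permutation test p = 0.125). That p is the smallest that 4 conceptuses can give, so no comparison of this kind can pass 0.05. HIF3A, the remaining subunit gene, was near the floor at 0.122 ± 0.0727 RPKM. HIF1A made up 27.1 ± 6.77% of the summed RPKM of the 3 subunit genes, from 20.6% in conceptus 3 to 36.5% in conceptus 2. ARNT, the constant partner of both subunits, was at 10.97, 13.2, 15.4 and 10.3 RPKM, and HIF1A minus ARNT was 0.08 ± 0.233, a difference smaller than its own spread, with HIF1A higher in 3 of 4 conceptuses (exact permutation p = 0.5).

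Transcripts of some genes whose products mark the subunits for destruction were found beside those of the subunits. The list of oxygen sensing and HIF subunits other than HIF1A also holds EPAS1, HIF3A, ARNT and coactivators. Of its 16 measured genes, 13 averaged 1 RPKM or more and 10 reached 5, with a median of 8.86 RPKM. Over all features with a symbol the matching values were 52.9%, 35.2% and 1.43 RPKM. The highest were TCEB2, elongin B of the VHL ubiquitin ligase, at 86.9 ± 28.02 RPKM, and RBX1, the RING subunit of cullin ligases, at 79.2 ± 17.9 RPKM. HIF1AN, the hydroxylase that blocks HIF from its coactivators, stood at 21.9 ± 4.51 RPKM. Of the prolyl hydroxylases, named here after their values were seen, EGLN1 stood at 12.8 ± 1.99, EGLN2 at 5.56 ± 2.47 and EGLN3, itself a HIF target, at 1.27 ± 0.174 RPKM. VHL was not analysed here.

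NDRG1, whose product is a cytoplasmic protein induced by low oxygen and repressed by MYC proteins, was at 44.9, 34.3, 63.7 and 56.4 RPKM in conceptuses 1 to 4. Its mean was 49.8 ± 12.9 RPKM (SD, n = 4). Conceptuses 3 and 4 held the higher values and conceptus 2 the lowest, with 1.86 times between the extremes. In human trophoblast NDRG1 is a known responder to hypoxia.

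NDRG1 was also the leading gene of its family. NDRG3 followed at 17.2 ± 4.37, NDRG2 at 5.79 ± 2.87 and NDRG4 at 0.392 ± 0.245 RPKM. NDRG1 exceeded NDRG3 by 1.48 ± 0.659 and NDRG2 by 2.98 ± 0.509 on the log2(RPKM + 1) scale, each in 4 of 4 conceptuses (exact permutation p = 0.125 for each). It held 67.3 ± 7.91% of the family's summed RPKM, and least in conceptus 2, at 56.3%, where NDRG1 was lowest and NDRG3 highest. The list of NDRG1 regulators and partners also holds NDRG2, NDRG3 and NDRG4. Of its 10 measured genes, 8 averaged 1 RPKM or more and 5 reached 5, with a median of 4.90 RPKM. Over all features with a symbol, 52.9% and 35.2% reached these levels. SGK1, the kinase that phosphorylates NDRG1, stood at 38.6 ± 4.39 RPKM, and GSK3B, which phosphorylates it further, at 14.9 ± 1.60 RPKM. AKT2, a related kinase, stood at 29.9 ± 9.83 RPKM.

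BNIP3 encodes a protein of the outer mitochondrial membrane that recruits the autophagy machinery to mitochondria. It was at 22.7, 16.8, 15.6 and 32.4 RPKM in conceptuses 1 to 4, a mean of 21.9 ± 7.70 RPKM (SD, n = 4). Conceptus 4 was highest and conceptus 3 lowest, 2.09 times apart. BNIP1 and BNIP2 share the name, given for binding the same viral protein, but are not close relatives of BNIP3. BNIP1, a SNARE of the endoplasmic reticulum, stood at 27.9 ± 7.14 RPKM and BNIP2 at 3.58 ± 0.656 RPKM. BNIP3 minus BNIP1 was -0.36 ± 0.654 on the log2(RPKM + 1) scale, with BNIP3 higher in 2 conceptuses and BNIP1 in the other 2 (exact permutation p = 0.5). BNIP3L, the true paralog of BNIP3, was not analysed here.

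Genes listed as mitophagy receptors and partners were mostly expressed. Of 16 measured, 15 averaged 1 RPKM or more and 13 reached 5, with a median of 19.8 RPKM. Over all features with a symbol, 52.9% and 35.2% reached these levels. PHB2, an inner-membrane receptor for the autophagy machinery, led at 182 ± 67.4 RPKM. RHEB, a small GTPase that binds BNIP3, followed at 59.7 ± 9.66, the cargo adaptor SQSTM1 at 58.6 ± 22.5 and the autophagosome protein GABARAP at 46.7 ± 11.5 RPKM. BCL2, named after its values were seen, was the only member of this list under 1 RPKM.

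Further HIF targets outside glycolysis gave an uneven picture. Of 28 measured genes, 18 averaged 1 RPKM or more and 12 reached 5, with a median of 3.05 RPKM. That was 64.3% and 42.9% of the list, against 52.9% and 35.2% of all features with a symbol. FAM162A, a mitochondrial protein, stood at 39.2 ± 13.1, ERO1L, an oxidase of protein folding, at 27.8 ± 7.69 and HMOX1, haem oxygenase, at 22.8 ± 8.82 RPKM. VEGFA, the vascular growth factor, was even at 21.3, 22.4, 21.5 and 23.5 RPKM. At the other end, and named after their values were seen, CA9, the membrane carbonic anhydrase, was between 0.32 and 0.6 RPKM, and ADM, adrenomedullin, between 0.02 and 0.18 RPKM. EPO, the hormone erythropoietin, also named after its values were seen, was listed at 0 in all 4 conceptuses. ANGPTL4, named in the same way, had the widest range of the listed genes averaging 1 RPKM or more. It was at 0.93, 0.39, 3.02 and 3.7 RPKM in conceptuses 1 to 4, with 9.49 times between the extremes. The mean of NDRG1 was above that of each gene of this list, and the mean of BNIP3 was just below that of VEGFA. Of the 18 genes at 1 RPKM or more, 4, 4, 4 and 6 were highest in conceptuses 1 to 4, where all features of that level were highest in 32.8%, 25.5%, 15.4% and 26.3% of cases.

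**Figure D2:**
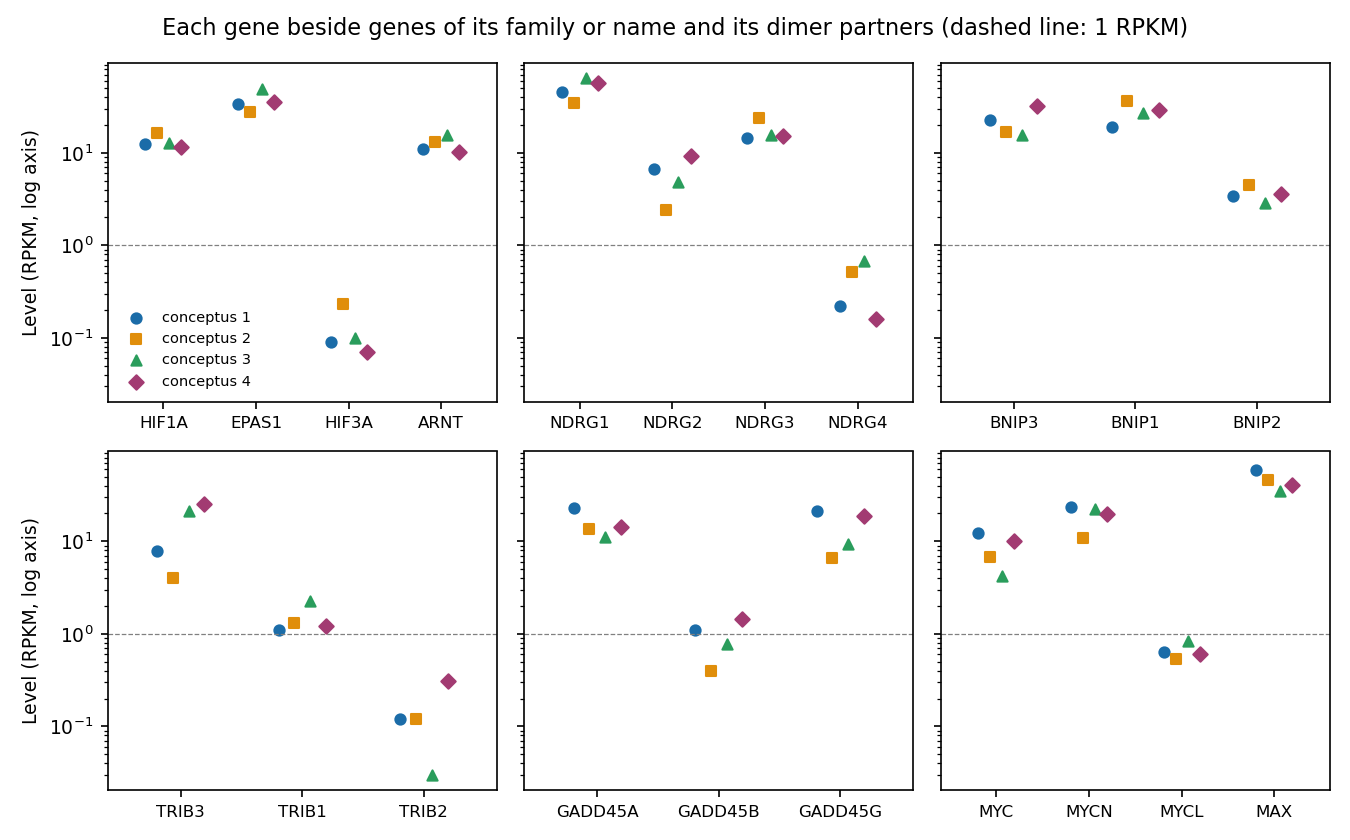
Level in RPKM (vertical axis, logarithmic) of each of the 6 genes, leftmost in its panel, beside genes of its family or name and, for HIF1A and MYC, the dimer partners ARNT and MAX. Each symbol is 1 conceptus and the dashed line marks 1 RPKM. EPAS1 lies above HIF1A and MYCN above MYC in each conceptus, while NDRG1 and TRIB3 lie above their family members.

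TRIB3 differed most between animals. It encodes a pseudokinase that binds the kinase AKT and is transcribed in response to ATF4. Its level was 7.88, 4.04, 21.3 and 25.5 RPKM in conceptuses 1 to 4, a mean of 14.7 ± 10.3 RPKM (SD, n = 4). Conceptuses 3 and 4 were both above conceptuses 1 and 2, and the highest was 6.31 times the lowest. Among the features averaging 5 RPKM or more, 99.1% had a lower coefficient of variation than TRIB3.

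The family around TRIB3 was low. TRIB1 stood at 1.09, 1.32, 2.29 and 1.22 RPKM and TRIB2 at 0.03 to 0.31 RPKM. TRIB3 exceeded TRIB1 by 2.39 ± 1.04 and TRIB2 by 3.48 ± 1.10 on the log2(RPKM + 1) scale, each in 4 of 4 conceptuses (exact permutation p = 0.125 for each). TRIB3 held 86.2 ± 8.91% of the family's summed RPKM, from 73.7% in conceptus 2 to 94.3% in conceptus 4.

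The upstream factors of TRIB3 were at opposite ends of the scale. ATF4 stood at 277, 277, 382 and 330 RPKM in conceptuses 1 to 4, a mean of 316 ± 50.3 RPKM, and TRIB3 minus ATF4 was -4.62 ± 0.949 on the log2(RPKM + 1) scale (exact permutation p = 0.125). ATF4 is controlled mainly at translation, so its transcript level is no measure of its protein. The highest ATF4 library was 1.38 times the lowest, and conceptuses 3 and 4 were the higher ones, as for TRIB3. DDIT3, the factor CHOP that acts with ATF4 on TRIB3, was listed at 0 in conceptuses 1 and 2 and at 0.09 and 0.29 RPKM in conceptuses 3 and 4.

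The remaining stress sensors were expressed in most cases. Of 15 measured genes of the integrated stress response, 14 averaged 1 RPKM or more and 12 reached 5, with a median of 14.5 RPKM. These were 93.3% and 80% of the list, against 52.9% and 35.2% of all features with a symbol. EIF2S1, the subunit that is phosphorylated, stood at 104 ± 17.0, EIF2S2 at 42.1 ± 8.76 and GCN1L1, the activator of the amino acid sensor GCN2, at 39.9 ± 4.46 RPKM. Among other ATF4 targets, 17 of 25 measured genes averaged 1 RPKM or more and 12 reached 5, with a median of 3.97 RPKM. The shares were 68% and 48%, against the same 52.9% and 35.2%. The ubiquitin-domain protein gene HERPUD1 led at 126, 81.3, 168 and 252 RPKM, followed by the serine hydroxymethyltransferase SHMT2 at 108 ± 32.9, the amino acid transporter subunit SLC3A2 at 49.6 ± 9.26 and PHGDH, first enzyme of serine synthesis, at 42.7 ± 6.20 RPKM. HERPUD1 was highest in conceptus 4 and lowest in conceptus 2, as was TRIB3. ASNS, asparagine synthetase, named after its values were seen, was at 7.35, 5.63, 5.22 and 3.71 RPKM, so conceptuses 3 and 4, which held most TRIB3, held the lowest ASNS.

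Of the 17 other ATF4 targets averaging 1 RPKM or more, the highest library was from 1.10 to 4.22 times the lowest, with a median of 1.98 times, against 6.31 times for TRIB3. The widest of them was DDIT4, an inhibitor of mTOR signalling, named after its values were seen. It had 2.41, 0.86, 2.77 and 3.63 RPKM in conceptuses 1 to 4, the order of TRIB3. JDP2, also named after its values were seen, had that order too, at 5.76, 5.6, 10.89 and 12.05 RPKM, as had HERPUD1. The remaining ATF4 targets of that level, ASNS among them, did not. DDIT4 and VEGFA are also on the list of HIF targets, so the 2 lists overlap. In counts chosen after the values were seen, 8 of the 17 were lowest in conceptus 2, where 32.8% of the 9602 features of that level had their lowest value, and 6 were highest in conceptus 4, against 26.3% of those features. After rescaling of the libraries by median ratios these counts were 6 of 17, against 28.7%, and 4 of 17, against 22.7%, the second being close to the share of all features. Trophectoderm markers, summed over 9 measured genes, were at 20175, 19594, 35045 and 32927 RPKM in conceptuses 1 to 4. The higher sums in conceptuses 3 and 4 came mostly from the interferon tau feature TP-1, at 14004, 13397, 29709 and 24277 RPKM. One by one, 4, 1, 3 and 1 of the 9 markers were highest in conceptuses 1 to 4. Of the 9602 features, 32.8%, 25.5%, 15.4% and 26.3% were highest there. TP-1 was higher in both conceptuses 3 and 4 than in 1 and 2. So were GATA3 and ELF5, named after their values were seen, though GATA3 barely, at 29.83 against 29.71 RPKM in conceptuses 4 and 1. The remaining markers were not. The exact order of TRIB3 was found in 0 of 9 markers. It was also absent from FAM115C, B3GNT7 and CD97, the 3 genes nearest to TRIB3 in pattern. The share of all features with the order of TRIB3 was not determined. The part of TP-1 in the TRIB3 difference was not tested. PTGS2, the inducible cyclooxygenase, named because its difference between these conceptuses was already known, had 473, 507, 1968 and 1424 RPKM and ranked 10th of 5358 genes in likeness to TRIB3.

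GADD45A was at 23.1, 13.6, 11.2 and 14.4 RPKM in conceptuses 1 to 4, a mean of 15.6 ± 5.21 RPKM (SD, n = 4). Conceptus 1 was the high one, and the other 3 lay close together. Its highest value was 2.07 times the lowest.

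GADD45G, a paralog, was about as high, and GADD45B was not. GADD45G stood at 21.5, 6.58, 9.43 and 18.8 RPKM and GADD45B at 0.925 ± 0.442 RPKM. GADD45A minus GADD45G was 0.23 ± 0.542 on the log2(RPKM + 1) scale, higher in 3 of 4 conceptuses (exact permutation p = 0.625), and it was -0.01 without conceptus 2. GADD45A exceeded GADD45B by 3.09 ± 0.427 in 4 of 4 conceptuses (exact permutation p = 0.125). Of 16 measured genes of growth arrest and the p53 response, 13 averaged 1 RPKM or more but only 5 reached 5, or 31.2% of the list against 35.2% of all features with a symbol. SFN, the epithelial 14-3-3 protein, led at 101 ± 37.3, followed by the apoptosis effector BAX at 33.4 ± 11.2, the cyclin CCNG1 at 17.6 ± 5.27 and the sestrin SESN1 at 6.34 ± 4.11 RPKM. CDKN1A, the p53-induced inhibitor of cyclin-dependent kinases, named after its values were seen, was between 0.9 and 1.56 RPKM. Markers of hypoblast and yolk sac endoderm, summed over 7 genes and made almost wholly of APOA1, were also highest in conceptus 1 in sum and in 4 of 7 genes, with sums of 450, 211, 238 and 304 RPKM, and their part in the GADD45A values was not tested.

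MYC was at 12.4, 6.84, 4.26 and 9.99 RPKM in conceptuses 1 to 4, a mean of 8.38 ± 3.57 RPKM (SD, n = 4). Conceptus 1 was highest and conceptus 3 lowest, 2.92 times apart. The 4 values were spread without a gap between high and low libraries.

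MYCN was the leading MYC family gene. It stood at 23.3, 10.7, 22.4 and 19.9 RPKM, above MYC in 4 of 4 conceptuses, and MYC minus MYCN was -1.13 ± 0.700 on the log2(RPKM + 1) scale (exact permutation p = 0.125). MYCL was at 0.652 ± 0.133 RPKM. MYC made up 30.05 ± 9.94% of the family's summed RPKM, and least in conceptus 3, at 15.5%, where MYC was lowest and MYCN near its highest. MAX, the obligate partner, stood at 59.5, 45.7, 34.8 and 40.3 RPKM, and MYC minus MAX was -2.36 ± 0.387 (exact permutation p = 0.125).

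Among MYC partners and antagonists, 15 of 19 measured genes averaged 1 RPKM or more and 10 reached 5, with a median of 5.92 RPKM. They were 78.9% and 52.6% of the list, against 52.9% and 35.2% of all features with a symbol. The helicases RUVBL2 and RUVBL1, which act in MYC coactivator complexes, led at 90.2 ± 15.6 and 76.4 ± 10.6 RPKM, and MLX, a MAX-like partner, stood at 29.3 ± 2.66 RPKM. The measured MAD family antagonists, named after their values were seen, were low: MXD1 at 1.23 to 2.37, MXD3 at 0 to 0.18 and MXI1 at 0 to 1.24 RPKM. MXD4 was not analysed here. MNT and MGA of the same list, also named after their values were seen, went apart, at 0.08 to 0.58 and 4.28 to 8.31 RPKM.

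MYC target genes of the nucleolus and of nucleotide synthesis were abundant. All 20 measured averaged 1 RPKM or more and 19 reached 5, with a median of 28.3 RPKM. That is 100% and 95% of the list, against 52.9% and 35.2% of all features with a symbol. FBL, the ribosomal RNA methyltransferase fibrillarin, stood at 251, 205, 158 and 216 RPKM in conceptuses 1 to 4. IMPDH2, which makes guanine nucleotides, had 195, 126, 87.1 and 170 RPKM. NOP56, a nucleolar scaffold, stood at 111 ± 30.9 RPKM and DKC1, the pseudouridine synthase, at 86.6 ± 22.9 RPKM.

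Conceptus 3, the lowest in MYC, was also the lowest in most of these targets, a count made after the values were seen. For 9 lists, 72 counts of genes highest or lowest in a conceptus were examined. The 5 counts given for MYC targets, MYC partners and ATF4 targets were picked because they stood out, and those of other lists were added for contrast, so all are a description and support nothing. Of the 20 targets 15 had their lowest value there, against 29.8% of all 9602 features averaging 1 RPKM or more. Their highest value was in conceptus 1, the highest in MYC, for 12 of the 20, against 32.8% of those features. After rescaling of the libraries by median ratios the first count was 12 of 20, against 22.4% of features, and the second was 9 of 20, against 24.4%. Their median deviation on the log2(RPKM + 1) scale was 0.28, 0.14, -0.36 and -0.07 in conceptuses 1 to 4, against 0.08, -0.06, -0.07 and 0.05 for all features. MYC partners had their lowest value in conceptus 3 in 7 of 15 cases, against 29.8% of features, and after rescaling in 5 of 15, against 22.4%. Departures arose in other lists too. In conceptus 3, 5 of 13 genes of oxygen sensing and 5 of 13 genes of the p53 response were highest, against 15.4% of features. In conceptus 2 the targets and MYC went apart, since MYC was below its mean there and the targets above theirs. The summed RPKM of MYC, MYCN and MYCL was 36.35, 18.11, 27.54 and 30.5 in conceptuses 1 to 4. This family sum was lowest in conceptus 2, whereas most targets were lowest in conceptus 3. Markers of endometrial epithelium, summed over 7 genes, followed the order of MYC at 10.9, 6.26, 3.64 and 7.39 RPKM, with 6 of the 7 under 1 RPKM on average and PGR, named after its values were seen, listed at 0 in all 4 conceptuses. WNT7A made up most of this sum. Of the 6 endometrial markers above 0, 2 had the order of conceptuses of MYC, as had 2 of 9 trophectoderm and 1 of 4 epiblast markers. The share of all features with that order was not determined, so these counts are a description only. GADD45A had the same order as MYC, and the part of these markers in the MYC and GADD45A values was not tested.

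**Figure D3:**
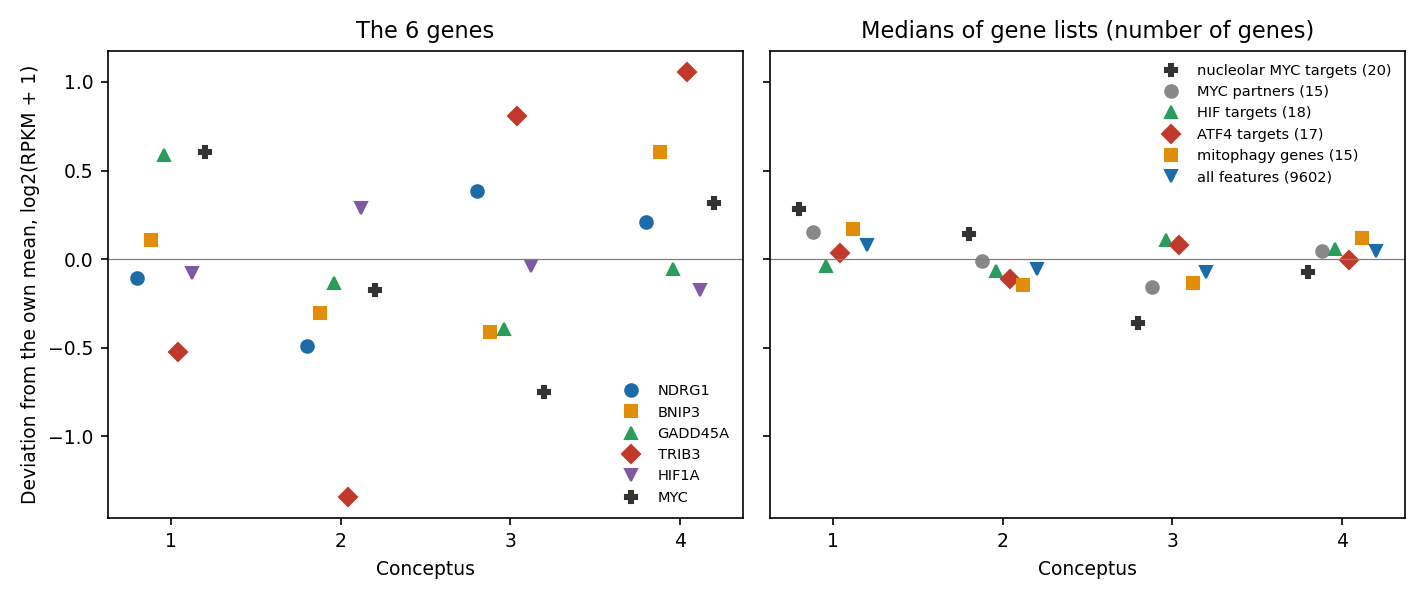
Deviation of log2(RPKM + 1) in each conceptus from the gene's own mean over 4 conceptuses (vertical axis), for the 6 genes (left) and as the median of gene lists, restricted to genes averaging 1 RPKM or more (right). Symbols are shifted sideways within a conceptus so that they do not cover each other. TRIB3 spans from -1.34 to 1.06, and the median of the nucleolar MYC targets is -0.36 in conceptus 3, where MYC deviates by -0.75.

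The order of the 6 genes was the same in each conceptus only at its top, NDRG1. Of the 15 pairs compared within libraries, 8 had the same direction in 4 of 4 conceptuses, each with an exact sign-flip permutation p of 0.125. These were NDRG1 over each of the other genes, BNIP3 over HIF1A and MYC, and GADD45A over MYC. The neighbours NDRG1 and BNIP3 differed by 1.17 ± 0.537 on the log2(RPKM + 1) scale. BNIP3 and GADD45A differed by 0.45 ± 0.484, GADD45A and TRIB3 by 0.33 ± 1.34, TRIB3 and HIF1A by -0.15 ± 1.30 and HIF1A and MYC by 0.68 ± 0.688. Each of these 4 differences was smaller than its SD over conceptuses, so the middle order is not resolved. TRIB3 was the lowest of the 6 genes in conceptuses 1 and 2, ranked 2 in conceptus 3 and 3 in conceptus 4.

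The spread of each gene was tested against the spread of all features of like level, with limma on log2(RPKM + 1) over the 9602 features averaging 1 RPKM or more. With p-values adjusted by the Benjamini-Hochberg method, limma called 0 of 9602 features, a share of 0%, and 0 of the 6 genes. At an unadjusted p under 0.05 it marked 466 features, or 4.85%, and 1 of the 6 genes, TRIB3, at an unadjusted limma p of 0.00539 and an adjusted p of 0.971. The SD of TRIB3 was 1.13 on the log2(RPKM + 1) scale, against 0.29 on the trend. MYC had an SD of 0.59, BNIP3 0.46, GADD45A 0.42 and NDRG1 0.38, above the trend of 0.29 without passing either threshold, and HIF1A 0.20, below it. The trend is fitted to the same features, so the share near 5% follows from the fit. Leaving out conceptus 1, 2, 3 or 4 gave 11, 0, 4 and 7 called features.

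**Figure D4:**
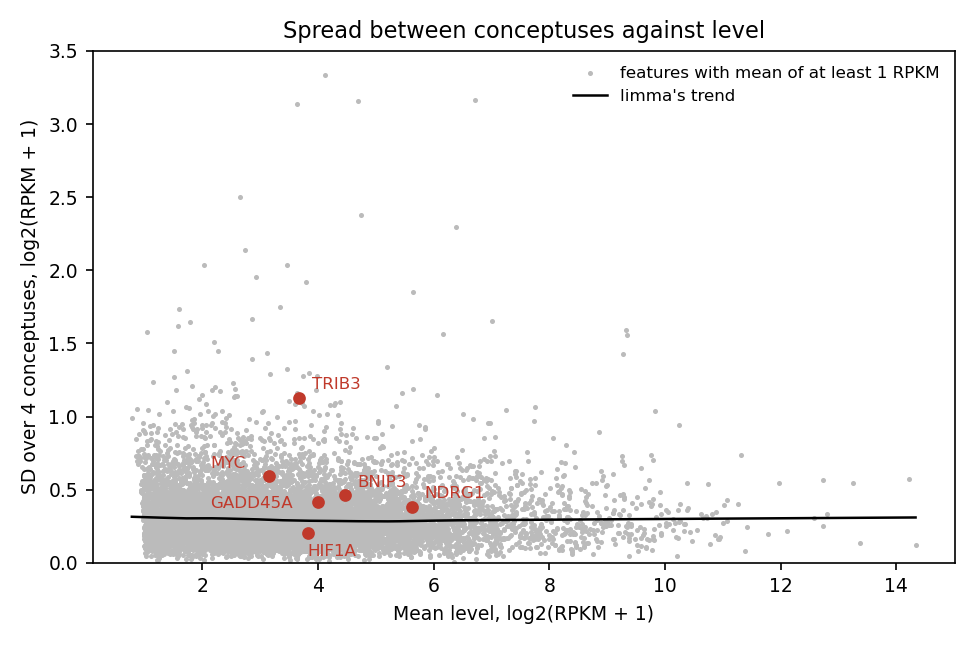
SD over 4 conceptuses against mean level, both on the log2(RPKM + 1) scale, for the 9602 features averaging 1 RPKM or more (grey), with limma's trend (line) and the 6 genes (red). TRIB3 lies at an SD of 1.13, far above the trend, and HIF1A at 0.20, below it.

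Likeness of pattern was measured as the root mean square difference between deviations from the own mean on the log2(RPKM + 1) scale over 4 conceptuses, among 5358 other genes with a symbol and an average of 5 RPKM or more. With 4 samples and so many genes close matches arise readily, and these are a description. Within the 6 genes the closest pair was GADD45A and MYC at 0.257, then BNIP3 and MYC at 0.341, and the farthest was TRIB3 and MYC at 1.18. The genes nearest to MYC were WDR74 (0.0314), NOC4L (0.0480) and RNF7 (0.0516). WDR74 had 40.1, 22.1, 15.1 and 33.4 RPKM in conceptuses 1 to 4, high and low in the same conceptuses as MYC. The genes nearest to GADD45A were CDPF1 (0.0197), MMACHC (0.0346) and SF3B4 (0.0360). Those nearest to BNIP3 were DNAL4 (0.0196), ARID3B (0.0253) and DPP9 (0.0614), and those nearest to NDRG1 were GCHFR (0.0309), ABHD2 (0.0317) and SCP2 (0.0397). TRIB3 had no such close neighbour. FAM115C came nearest at 0.216, with 83.4, 57.3, 225 and 202 RPKM, before B3GNT7 (0.221) and CD97 (0.309). Distances on this measure grow with a gene's own spread. The root mean square deviation was 0.979 for TRIB3, and from 0.174 for HIF1A to 0.513 for MYC among the others. The larger distances of TRIB3, also that from MYC, are thus not a measure of pattern alone. HIF1A was left out of this comparison because its highest library was under 1.5 times its lowest.

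Facts of the whole series that bear on these values are few. The summed RPKM of a library ranged from 454387 to 522308, and scaling by median ratios would move a library by at most 0.11 on the log2 scale. Read counts are unknown, so no counting error can be given. The most frequent ratio of values among features seen in only 2 libraries gave relative depths of 0.740, 1.04 and 0.669 for conceptuses 2, 3 and 4 with conceptus 1 set to 1, a rough estimate from 66 to 85 features a pair. Libraries were sequenced 3 to a chip, and no source used here says which shared a chip, so a chip effect cannot be told apart from a difference between animals. All 9 measured trophectoderm markers averaged 1 RPKM or more. Leukocyte markers were near the floor, with 4 of 5 measured under 1 RPKM and a summed level of 1.26 to 2.26 RPKM. Of these, CD14, named after its values were seen, was listed at 0 in conceptuses 2, 3 and 4. The listed red-cell markers HBB, HBA and HBE were not analysed here, so these values do not cover red cells. Of the epiblast markers 2 of 4 were under 1 RPKM, and of the endoderm markers 4 of 7. LIN28A, the highest of the epiblast list, stood at 202 ± 14.8 RPKM.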

How the data were processed

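Total RNA of 4 day 14 conceptuses was depleted of ribosomal RNA, made into strand-specific libraries and read on an Ion Proton, per the labels' protocols. The values are RPKM, computed and deposited by the authors. Oar_v3.1 is the genome build in the submitters' processing notes. No source used here names the aligner, the counter or the annotation. The unit is named only in the second deposited table, whose 5527 features have values identical to the first. With RPKM and no counts, no count model was used and depth is unknown. Replicates are separate animals.

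Means, SDs and within-library log2(RPKM + 1) differences were computed from the deposited RPKM, with two-sided exact sign-flip permutation tests. The spread test ran in R 4.3.3 with limma 3.58.1 (robust trended prior, upper-tail F test, Benjamini-Hochberg over 9602 features, threshold 0.05) and was checked on simulated data. That simulation was revised after seeing its outcome: with variances spread as in the data, moderate shifts gave no calls, and larger shifts were then added. The simulation shifted 1 conceptus only, so it does not show what the test does with differences shaped like those of the genes here. Other steps used pandas 2.3.3 and numpy 2.4.6 in Python 3.11.15, with figures from matplotlib 3.10.9. The genes and lists were chosen with earlier results of these data known, and no list was tested. Named genes are the 6 genes, the genes paired with them, the 4 highest of each pathway list and the 3 nearest in pattern. Of the marker lists, only TP-1, APOA1, LIN28A and WNT7A, each the highest of its list, were named by level. For PTGS2 the reason is given, and any other measured gene is said to have been named after its values were seen. List genes absent from the table were not analysed here. The RefSeq gene table, of another assembly and used for names only, holds all 6 symbols, and no coordinates are given. Whether counting used the strand is not given, so reads of antisense partners cannot be told apart. A value of 0 is reported as listed at 0. Counts of list genes highest or lowest in a conceptus, and their rescaling, were chosen after seeing the data. Alternatives were pseudocount, filter, scaling, prior and leaving out each conceptus.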

Additional observations from a re-analysis of the deposited data

Results flagged for a closer look

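Among 77 sets of 4 values examined, covering the 6 genes, their family and partner genes, the 4 highest genes of each pathway list, the 3 genes nearest in pattern to each gene except HIF1A, PTGS2 and the family shares, but not the other genes named after their values were seen, 1 set had an extreme value whose gap to its neighbour was large against the whole range, where chance gives about 1 in 20, or 3.85 sets. That set was NDRG3, with 23.67 RPKM in conceptus 2, while the other 3 conceptuses lay between 14.3 and 15.51 RPKM.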

How the results depend on the processing

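Rescaled to TPM, the means were 102.1 for NDRG1, 44.4 for BNIP3, 31.9 for GADD45A, 29.7 for TRIB3, 27.4 for HIF1A and 17.03 for MYC, in the same order. Leaving out 1 conceptus turned the direction of 4 differences on the log2(RPKM + 1) scale. GADD45A minus TRIB3 ranged from -0.071 to 0.73 and was -0.039 without conceptus 1 and -0.071 without conceptus 2. GADD45A minus HIF1A ranged from -0.036, without conceptus 1, to 0.33. TRIB3 minus HIF1A ranged from -0.56 to 0.40 and was 0.0035 without conceptus 1 and 0.40 without conceptus 2. GADD45A minus GADD45G ranged from -0.012, without conceptus 2, to 0.42. Another pseudocount turned none of the 15 differences between the 6 genes and none of the 17 with family or partner genes. The spread test called 0 features under each setting that kept all 4 conceptuses and 0 to 11 features with 1 left out (11 without conceptus 1, 4 without conceptus 3 and 7 without conceptus 4). Of the growth arrest and p53 list, 3 genes were at 5 RPKM or more in each conceptus, against 5 by their mean. The rescaling of the highest and lowest counts was chosen after seeing the data. No paired analysis was possible because there is 1 group. Depth is unknown, so what counting error adds to these values cannot be given.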
